A study of Mus musculus with 8 samples.

Results

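Of the genes described here, all but Myocd encode parts of the contractile apparatus that marks smooth muscle cells and myofibroblasts. Myocd encodes a coactivator of such genes. All were followed through cultures of mouse embryonic fibroblasts (MEFs, a primary culture grown from minced embryos). Members were the rows of the raw count table whose Ensembl identifiers map to Acta2, Tagln, Cnn1, Myh11, Actg2, Des, Lmod1, Myl9, Tpm2 or Myocd. All 10 were found among the 19493 genes of the table, and all 10 were among the 16470 genes with enough reads to be tested. RNAseq libraries were made from 4 WT and 4 Dp1Tyb MEF samples, all grown from E14.5 embryos. The labels give the strain background of all samples as C57BL/6J.129P2, and the study's methods state that the mice were backcrossed to C57BL/6JNimr. Dp1Tyb MEFs carry the allele Dp(16Lipi-Zbtb21)1TybEmcf, a duplication of the stretch of chromosome 16 from Lipi to Zbtb21, and WT MEFs lack it; the labels name no other allele or agent. The embryos were decapitated and eviscerated before they were minced, so each culture began as a mixture of the cell types left in the trunk and limbs.

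In smooth muscle, contraction is driven by myosin filaments built on the heavy chain Myh11 and switched on by phosphorylation of regulatory light chains such as Myl9. These filaments pull on thin filaments of smooth muscle actins (Acta2 and Actg2) dressed with tropomyosin (Tpm2) and calponin (Cnn1). Fibroblasts that turn into myofibroblasts during wound healing or on stiff culture plastic switch on Acta2 and Tagln, while Myh11 and the coactivator Myocd are regarded as marks of differentiated smooth muscle. Many of these genes are read by serum response factor (SRF), which binds a DNA element named the CArG box and works with Myocd or its relatives Mrtfa and Mrtfb.

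Upstream sequence was taken from RefSeq (GRCm38.p6), which gave a promoter for 6 of the 10 members: Acta2, Cnn1, Des, Lmod1, Myl9 and Tpm2. The CArG box was searched as CC, then 6 bases that are A or T, then GG. The same search allowing 1 base that is not A or T among those 6 was also made. Both forms read the same on both strands. The exact box was present in the promoter of Myl9, and the box with at most 1 such base in those of Acta2 and Myl9, with 2 matches each. Among all 27025 genes with a promoter of the same length, 1.81% held the exact box and 11.3% the relaxed one. The windows of Acta2 and Myl9 are shown because they hold the matches, and that of Cnn1 for comparison because it holds none although Cnn1 varied with Acta2 and Myl9 between libraries. Each is the 250 bases before the start that RefSeq annotates, 5′ to 3′ on the strand of the gene, with the matches in capitals.
Acta2: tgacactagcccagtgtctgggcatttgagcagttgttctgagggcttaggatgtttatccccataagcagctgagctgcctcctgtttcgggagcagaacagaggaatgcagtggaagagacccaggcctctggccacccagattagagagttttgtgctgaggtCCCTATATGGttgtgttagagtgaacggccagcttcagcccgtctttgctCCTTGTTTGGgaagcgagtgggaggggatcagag
Myl9: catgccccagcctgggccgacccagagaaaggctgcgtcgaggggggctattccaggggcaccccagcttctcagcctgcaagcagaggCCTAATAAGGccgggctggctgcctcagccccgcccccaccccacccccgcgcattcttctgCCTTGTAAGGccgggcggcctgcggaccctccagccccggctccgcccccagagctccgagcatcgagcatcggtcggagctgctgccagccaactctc
Cnn1: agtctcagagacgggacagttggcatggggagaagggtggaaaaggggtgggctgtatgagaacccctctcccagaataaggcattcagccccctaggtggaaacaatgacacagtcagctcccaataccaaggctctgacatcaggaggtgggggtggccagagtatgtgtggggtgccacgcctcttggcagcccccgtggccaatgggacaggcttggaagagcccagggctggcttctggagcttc
The Acta2 window lies at chr19:34255374-34255623 on the minus strand, that of Myl9 at chr2:156775214-156775463 on the plus strand and that of Cnn1 at chr9:22099003-22099252 on the plus strand. In GENCODE M21, from which the gene coordinates given further on are taken, all 3 genes start further upstream, inside these windows. Counted from the RefSeq start as position 0, the matches in Acta2, CCCTATATGG and CCTTGTTTGG, span -84 to -75 and -34 to -25. Those in Myl9 span -161 to -152 (CCTAATAAGG, the exact form) and -99 to -90 (CCTTGTAAGG). A match is a description of these letters only; no binding was measured.

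The libraries held 17698900 to 26471758 counts, of which 0.882% to 1.65% came from synthetic ERCC spike-in RNAs added to the lysed cells. Counts were put on 2 scales: per spike-in, the normalisation of the study, and relative to the other genes of the library (CPM, the counts of a gene over a library size corrected by TMM). RNA per spike-in ranged from 0.688 in Dp1Tyb replicate 2 to 1.31 in Dp1Tyb replicate 4, relative to the geometric mean of the libraries. Of 112 tested genes in the duplicated region, 101 were higher in Dp1Tyb MEFs with relative scaling, with a median fold change of 1.46. The labels name 1 sequencing lane for all libraries and give no other batch. They do not say whether each sample is a separate embryo, so p-values measure the spread between these samples. All fibroblast markers looked at were present (Col1a1, a chain of type I collagen, at 3236 to 8389 CPM). No member lies in the duplication. Myh11 is on chromosome 16 (GRCm38 chr16:14194535-14291372) but ends 61.2 Mb before it.

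Per length of exon, the members covered a wide range of levels, given here as the mean RPKM (CPM per kilobase of exon) over the 8 libraries. Acta2, smooth muscle alpha-actin (ENSMUSG00000035783, chr19:34241090-34255590), stood highest at 418. Tagln, the actin-binding protein transgelin (ENSMUSG00000032085, chr9:45929619-45936058), followed at 199.6, and Tpm2, beta-tropomyosin (ENSMUSG00000028464, chr4:43514711-43523765), at 66.9. Each of these exceeded the next in 8 of 8 libraries. Myl9, the regulatory light chain (ENSMUSG00000067818, chr2:156775420-156781658), had 36.7 and exceeded Actg2, smooth muscle gamma-actin (ENSMUSG00000059430, chr6:83512905-83536265), at 11.3, in 8 of 8 libraries. Actg2 was above Des, the muscle intermediate filament desmin (ENSMUSG00000026208, chr1:75360329-75368579), at 4.03, in 7 of 8 libraries. The order of Lmod1 and Cnn1 was not resolved: leiomodin 1, an actin filament nucleator (ENSMUSG00000048096, chr1:135324807-135368065), had 2.04 RPKM, calponin 1 (ENSMUSG00000001349, chr9:22099216-22109630) had 1.92, and Lmod1 was the higher in 5 of 8 libraries. Myh11 (ENSMUSG00000018830) had 1.03 RPKM, below Cnn1 in 7 of 8 libraries. Myocd (ENSMUSG00000020542, chr11:65176561-65269989) was lowest at 0.113 RPKM, below Myh11 in 8 of 8 libraries. Its 2 to 27 reads per library leave its values with a large counting error. No stretch of 100 bases, the read length, was identical between a transcript of a member and a transcript of another gene in GENCODE M21. Of the genes overlapping a member, only Pcsk7, on the opposite strand to Tagln, was in the table, with 358 to 610 reads; whether counting used strand is not given in the sources used here.

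The actins and their partners in the thin filament differed several-fold between cultures of 1 genotype. Acta2 had 387, 1547, 387 and 531 CPM in WT replicates 1 to 4, and 329.8, 1923, 1277 and 968 CPM in Dp1Tyb replicates 1 to 4. WT replicate 2 stood with Dp1Tyb replicates 2, 3 and 4 at the high end, and Dp1Tyb replicate 1 below every WT library, so the groups overlapped fully. Tagln had 168, 691, 190.0 and 241 CPM in the WT libraries and 142, 811, 516 and 416 CPM in the Dp1Tyb libraries, with the libraries in the same order as for Acta2. The ratio of Acta2 to Tagln in RPKM stayed between 1.85 and 2.24 in the 8 libraries, while each gene on its own spanned 5.83-fold and 5.70-fold.

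Actg2 spanned the widest range of the members, 36.9-fold. It had 11.1, 33.8, 5.16 and 5.39 CPM in WT and 1.12, 41.4, 28.4 and 14.0 CPM in Dp1Tyb MEFs. Cnn1, which binds actin and restrains the myosin motor, spanned 25.0-fold, with 2.01, 10.5, 1.89 and 1.602 CPM in WT and 0.464, 11.6, 8.37 and 5.52 CPM in Dp1Tyb MEFs. For Cnn1 the WT group consisted of 1 high library and 3 low ones, and the Dp1Tyb group of 3 high libraries and 1 very low one. Tpm2 was the flattest member, spanning 2.81-fold, with 112, 227, 134 and 174 CPM in WT and 121, 316, 249 and 224 CPM in Dp1Tyb MEFs. Tpm2 was the only member whose lowest library was not Dp1Tyb replicate 1 but WT replicate 1.

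Of the myosin genes, Myl9 had 26.8, 76.5, 13.4 and 18.2 CPM in WT and 11.5, 97.3, 58.8 and 38.8 CPM in Dp1Tyb MEFs. Myh11 had 9.92, 12.2, 3.41 and 1.80 CPM in WT and 0.619, 14.0, 12.7 and 7.82 CPM in Dp1Tyb MEFs, a span of 22.7-fold. Myh11 departed from Acta2 in WT replicate 1, which was near the high libraries for Myh11 and near the low ones for Acta2. The ratio of Acta2 to Myh11 in RPKM ran from 135 in WT replicate 1 to 1844 in Dp1Tyb replicate 1.

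Desmin, Lmod1 and Myocd had replicate 2 of each genotype as their highest libraries and Dp1Tyb replicate 1 as their lowest, as Acta2 did, while the order of the other libraries differed from that of Acta2 for all 3. Des had 8.40, 24.4, 7.44 and 5.34 CPM in WT and 3.21, 30.3, 22.9 and 19.1 CPM in Dp1Tyb MEFs. Lmod1 had 8.53, 16.4, 3.17 and 4.17 CPM in WT and 2.59, 13.9, 10.1 and 5.47 CPM in Dp1Tyb MEFs. Lmod1 was higher in WT replicate 1 than in Dp1Tyb replicate 4, and Des lower. Myocd, which coactivates SRF in heart and smooth muscle, had 0.894, 1.15, 0.332 and 0.728 CPM in WT and 0.0773, 1.096, 0.640 and 0.921 CPM in Dp1Tyb MEFs and was lowest, at 2 reads, in Dp1Tyb replicate 1.

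**Figure D1:**
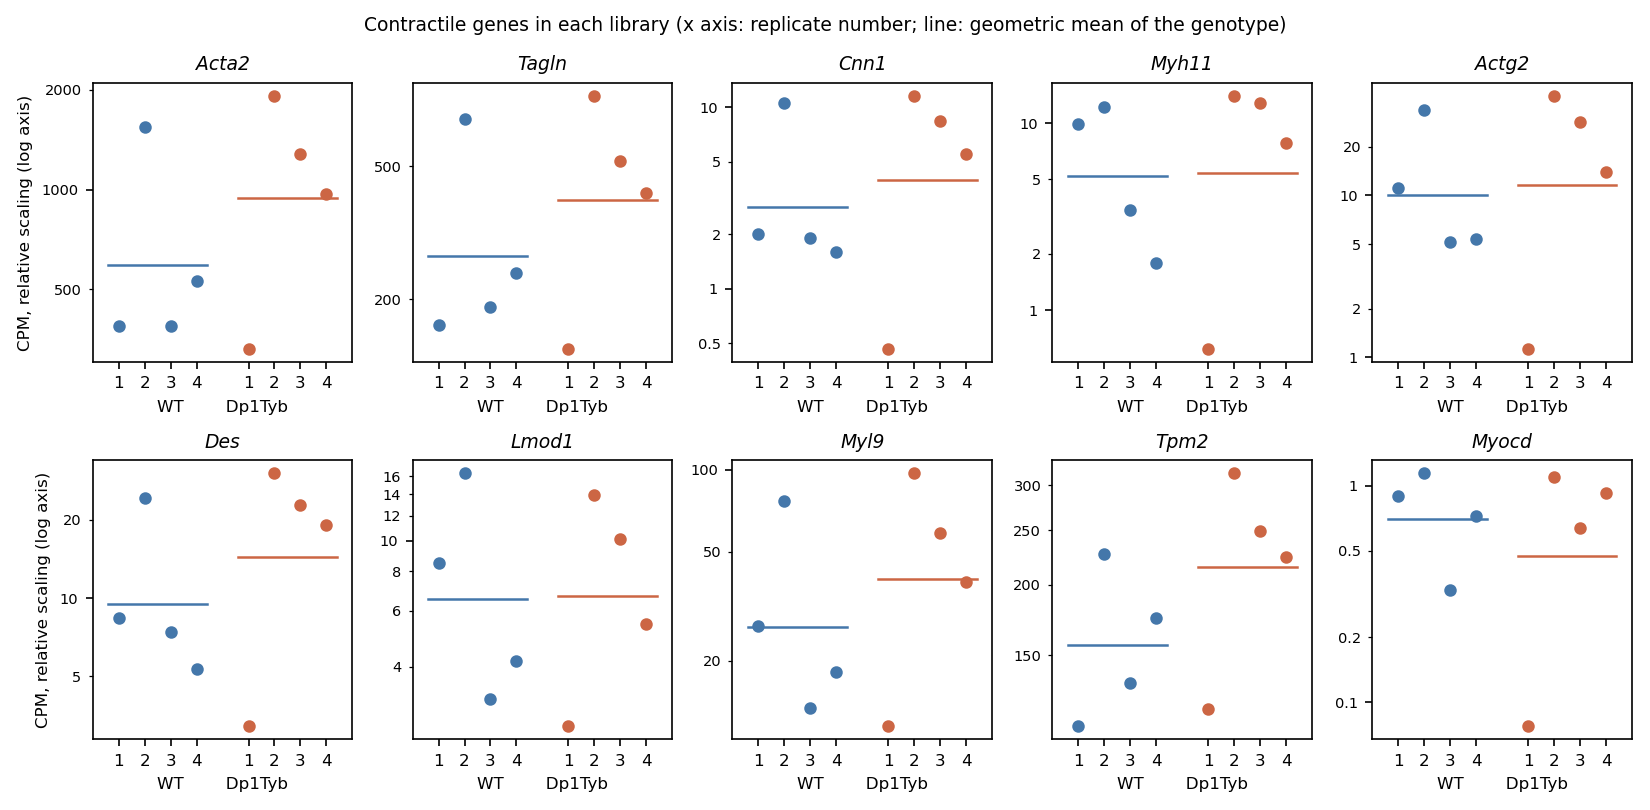
CPM of each member (log axis, relative scaling) by library, with the replicate number on the x axis, WT in blue and Dp1Tyb in orange, and a line at the geometric mean of each genotype. WT replicate 2 stands with Dp1Tyb replicates 2 and 3 in most panels, and Dp1Tyb replicate 1 is lowest in all panels but that of Tpm2.

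This spread is wide beside that of other genes. The SD of log2 CPM within genotypes was 0.52 for Tpm2 and between 1.00 and 1.88 for the other 9 members, with a median of 1.22, against a median of 0.28 over all 16470 tested genes. Tpm2 was above 81.0% of tested genes by this measure, and the other 9 members were above between 97.7% and 99.8% of them. The members together made up 735, 2640, 746 and 984 CPM in the WT libraries and 612, 3258, 2184 and 1699 CPM in the Dp1Tyb libraries. From the library with the highest mean standardised level of the members to the lowest (Dp1Tyb replicate 2, WT replicate 2, Dp1Tyb replicates 3 and 4, WT replicates 1, 4 and 3, Dp1Tyb replicate 1), RNA per spike-in was 0.688, 0.883, 1.053, 1.31, 1.19, 1.17, 0.713 and 1.204. Total counts in the same order were 18431724, 23977262, 20917824, 17698900, 20832817, 21025552, 21087303 and 26471758. The part of depth and of RNA per spike-in in the members' levels was not tested. In a bulk culture, more cells of a contractile type and more RNA of these genes per cell cannot be told apart.

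The first comparison was whether the duplication changed the members. No member passed the test with either scaling. With spike-in scaling, edgeR's quasi-likelihood test called 0 of 10 members at an adjusted p under 0.05, where it called 2 of all 16470 genes (0.0121%). At an unadjusted p under 0.05 it had 2 members, Acta2 and Des, beside 1.17% of all genes. This count ran from 0, without WT replicate 3, Dp1Tyb replicate 3 or Dp1Tyb replicate 4, to 6 without WT replicate 2 and 7 without Dp1Tyb replicate 1. Over all genes the same runs, in this order, had 120, 134, 218, 188 and 259 genes, against 192 with all libraries. With relative scaling edgeR called 0 of 10 members and 3 of all genes (0.0182%), and no member had an unadjusted p under 0.05, beside 4.27% of all genes. DESeq2 called none of the members with either scaling, while calling 0.0121% of all genes with spike-in and 0.316% with relative scaling. It had no member at an unadjusted p under 0.05 either, beside 0.88% and 4.32% of all genes. The genotypes overlapped for all 10 members on both scales, where 0.431% of all genes with spike-in and 3.13% with relative scaling did not overlap.

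The estimates were mostly above 0 but wide. With spike-in scaling 8 of 10 members had a higher estimate in Dp1Tyb MEFs, and the median log2 fold change was 0.56, against 0.11 over all tested genes, 70.4% of which were above 0. With relative scaling again 8 of 10 were above 0, with a median of 0.58 against 0.01 over all tested genes, 51.2% of which were above 0. The members varied together between libraries, as shown further on, so the directions of their estimates are not independent. The 11 tested skeletal muscle markers had a median log2 fold change of 0.91 on the spike-in scale and 0.75 on the relative one. That of the 5 tested cardiac muscle markers was 0.63 and 0.55. The 6 tested macrophage markers had one of -0.57 and -0.67, and the 5 tested chondrocyte markers one of -0.21 and -0.46. The part of these cell types in the members' estimates was not tested. For Acta2 the spike-in normalised read count averaged 14217 ± 9985 (SD, n = 4) in WT and 22644 ± 9585 (SD, n = 4) in Dp1Tyb MEFs. Its log2 fold change was 0.67 (SE 0.32, unadjusted p = 0.037, adjusted p = 1.00 by edgeR). Des averaged 225 ± 155 in WT and 386 ± 207 in Dp1Tyb MEFs, a log2 fold change of 0.78 (SE 0.35, unadjusted p = 0.026, adjusted p = 1.00 by edgeR). Leaving out WT replicate 3 or WT replicate 2 moved these log2 fold changes to 0.41 or 1.26 for Acta2 and to 0.54 or 1.36 for Des. In this fit edgeR pooled the spread over all genes without a gene-specific part, so its SEs, 0.32 to 0.54 over the members, do not carry the members' own spread. A two-sided exact permutation test on each member's own log2 values, added after the results were seen, gave p = 0.371 for Acta2 and p = 0.429 for Des. Over all 10 members with spike-in scaling this exact p ran from 0.143 for Tpm2 to 0.886 for Myh11 and Lmod1, where 4 against 4 libraries can reach 0.0286.

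With relative scaling, where the fit kept a gene-specific spread, the SEs ran from 0.29 for Tpm2 to 0.86 for Actg2. The 95% interval of the log2 fold change was -0.60 to 1.91 for Acta2, -1.32 to 2.54 for Actg2 and -1.38 to 2.09 for Myh11. Differences of more than 2-fold in either direction therefore lay inside the intervals of Actg2, Myh11, Cnn1, Lmod1 and Myocd. Tpm2 had the narrowest interval, -0.16 to 1.14, around a log2 fold change of 0.49 (adjusted p = 0.999 by edgeR). With the replicate number as a block, the log2 fold change of Tpm2 was 0.46 (unadjusted p = 0.00737, adjusted p = 0.352 by edgeR). Lmod1, at -0.02, and Myocd, at -0.24, were the members with estimates below 0 on this scale. Single libraries moved these values: without WT replicate 2 the log2 fold change of Acta2 with relative scaling was 1.38 and that of Cnn1 1.82. In that run 6 members had an unadjusted p under 0.05 by edgeR, beside 921 of all genes (703 with all libraries), and no member was called. Without Dp1Tyb replicate 2 the estimates of Acta2 and Cnn1 were 0.27 and 0.24.

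**Figure D2:**
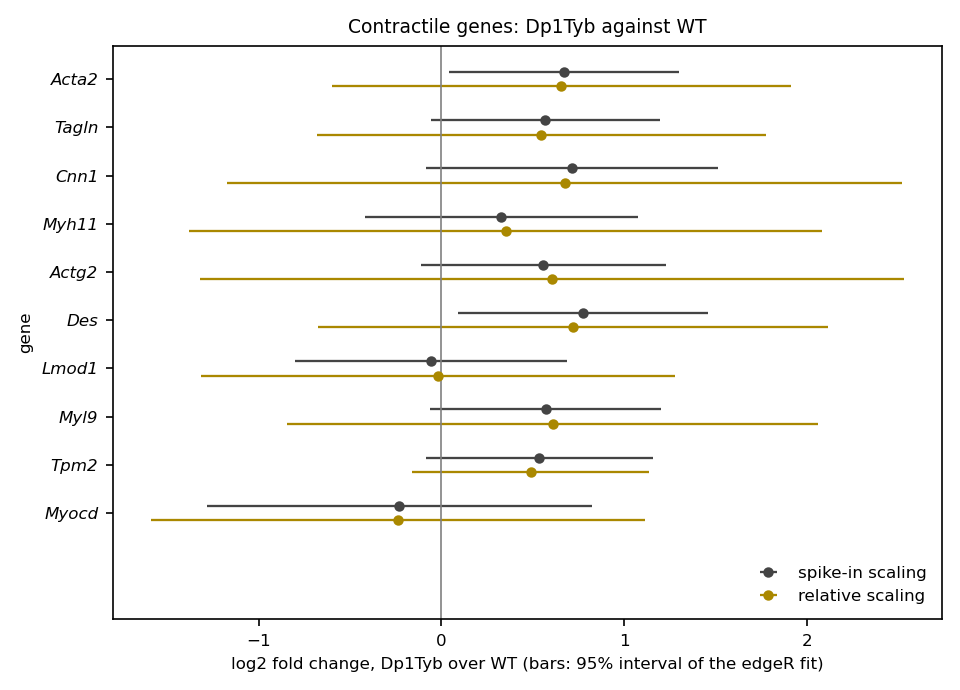
Log2 fold change of each member, Dp1Tyb over WT, with spike-in (dark) and relative scaling (ochre), and bars for the 95% interval of the edgeR fit. All 10 intervals with relative scaling include 0, and those of Acta2 and Des with spike-in scaling do not.

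The second comparison was whether the members rose and fell together between libraries. They did, in nearly every pair. Over the 8 libraries, Pearson's r of log2 CPM was above 0 in all 45 pairs, with a median of 0.88 and a range of 0.60 to 0.997. Over all pairs of tested genes the median was -0.0011, and 0.728% of those pairs had an r of at least 0.9, compared with 44.4% of the member pairs (20 of 45). In 42 of 45 pairs the correlation passed a two-sided exact permutation test after Benjamini-Hochberg adjustment over the 45 pairs (all 40320 pairings of 8 libraries). Spearman's rho also passed in 42 of 45 pairs. With the mean of each genotype removed, the median r was 0.91, and 44 of 45 pairs passed. That test shuffled the values over all 8 libraries although the genotype means had been taken out. Its p-values can therefore be too small, and the 44 is not to be compared with the 42.

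The tightest pair was Acta2 and Tagln (r = 0.997, rho = 1.00, exact p = 2.48e-05, the smallest that these pairings can give, adjusted p = 0.000558). Of all 16469 other tested genes, Tagln had the highest r with Acta2. Cnn1 and Des were nearly as close (r = 0.988, rho = 1.00, adjusted exact p = 0.000558), followed by Cnn1 and Actg2 (r = 0.977, rho = 0.976). Tpm2 and Myl9 also ranked near the top of all genes by their r with Acta2, at rank 71 (r = 0.962) and 94 (r = 0.957). Cnn1, Des and Actg2 came at ranks 182, 227 and 630, and Lmod1, Myh11 and Myocd at ranks 1202, 2084 and 2702 (r = 0.828, 0.742 and 0.667).

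The members were graded, with Myh11, Lmod1 and Myocd nearer to Actg2 than to Acta2. Myh11 had an r of 0.957 with Actg2 and 0.742 with Acta2, and Lmod1 an r of 0.928 with Actg2 and 0.828 with Acta2. The difference between these correlations was not tested. The 3 pairs that did not pass by Pearson's r all held Tpm2, with Myocd (r = 0.598, exact p = 0.105), Myh11 (r = 0.618, exact p = 0.1002) and Lmod1 (r = 0.670, exact p = 0.0755); their adjusted p-values were 0.105, 0.103 and 0.0790. By Spearman's rho the pairs that did not pass were Tpm2 with Myocd, Tpm2 with Lmod1 and Myh11 with Myocd. Without WT replicate 1, in which Myh11 was high and Tpm2 and Acta2 low, all 45 pairs passed and the median r was 0.95. Without Dp1Tyb replicate 1, the lowest library, 27 of 45 pairs passed and the median r was 0.86.

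When the 2 libraries farthest from the median of the first gene of a pair were left out, r stayed above 0 in every pair, from 0.461 upwards, with a median of 0.83. At 6 libraries 20 of 45 pairs had an unadjusted exact p under 0.05. For Acta2 and Tagln, without Dp1Tyb replicates 1 and 2, r was 0.996 (exact p = 0.00139). For Acta2 and Myh11, without the same libraries, r was 0.601 (exact p = 0.239), and for Des and Myocd 0.461 (exact p = 0.388). Leaving out the most extreme libraries narrows the range of the first gene and leaves 6 libraries, and the relations of Acta2 with Myh11 and of Des with Myocd could not be shown in those 6.

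**Figure D3:**
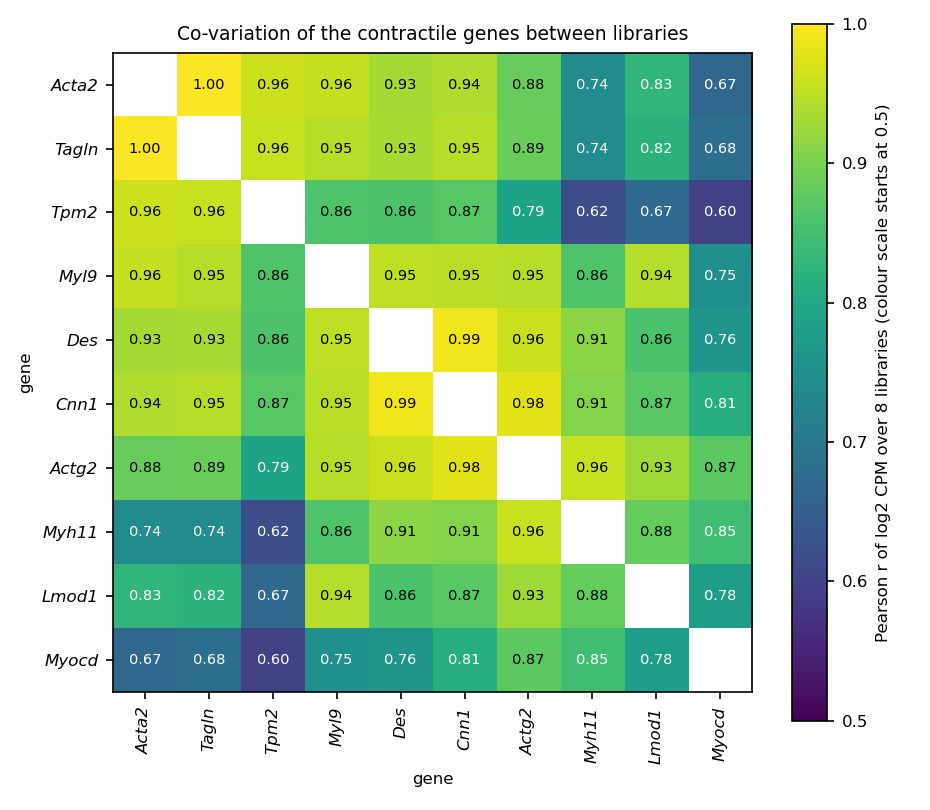
Pearson's r of log2 CPM over the 8 libraries for each of the 45 pairs of members, on a colour scale from 0.5 to 1. The highest values are those of Acta2 with Tagln (0.997), Cnn1 with Des (0.988) and Cnn1 with Actg2 (0.977), and the lowest is that of Tpm2 with Myocd (0.60).

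To place other genes beside this pattern, the members' log2 CPM were each standardised over the 8 libraries and averaged. This contractile profile was 1.15 in Dp1Tyb replicate 2, 0.945 in WT replicate 2, 0.691 in Dp1Tyb replicate 3 and 0.332 in Dp1Tyb replicate 4. It was -0.291 in WT replicate 1, -0.537 in WT replicate 4, -0.747 in WT replicate 3 and -1.55 in Dp1Tyb replicate 1. Correlations with it are given as descriptions, over 8 libraries that all the genes share. The median r with the profile was -0.01 over all tested genes, and 3.74% of the 16460 genes outside the members had an r of at least 0.9 (615 genes).

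Of 34 other genes of actomyosin and focal adhesions, 32 were tested, and their r with the profile ranged from -0.48 to 0.98 with a median of 0.51. Closest were Nexn, which encodes the actin-binding protein nexilin (r = 0.978), Itga8, the integrin alpha 8 chain (r = 0.957), and Csrp1, a LIM protein of smooth muscle (r = 0.922). Csrp1 had 113, 237, 127 and 155 CPM in WT and 110, 297, 234 and 217 CPM in Dp1Tyb MEFs. Genes that non-muscle cells also use at high levels differed among themselves. Vcl, the focal adhesion protein vinculin, spanned 1.80-fold (r = 0.887), Tpm4, a cytoskeletal tropomyosin, 1.89-fold (r = 0.859) and Actg1, cytoplasmic gamma-actin, 1.76-fold (r = 0.741). Actb, beta-actin, spanned 1.57-fold (r = 0.596) and Myh9, non-muscle myosin heavy chain IIA, 1.38-fold (r = 0.165). Between genotypes edgeR and DESeq2 called 0 of the 32 with either scaling, and edgeR had 2 at an unadjusted p under 0.05 with relative and 0 with spike-in scaling. With relative scaling their median log2 fold change was 0.17, and the smallest unadjusted p-values were those of Tpm1, the alpha-tropomyosin gene (log2 fold change 0.35, SE 0.14, unadjusted p = 0.0376), Synpo2, an actin-bundling protein (0.40, SE 0.17, unadjusted p = 0.0388), and Myl6, an essential myosin light chain (0.28, SE 0.13, unadjusted p = 0.0548), each with an adjusted p of 0.999 by edgeR. Without Dp1Tyb replicate 2 the log2 fold change of Myl6 was 0.16.

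Most genes of the list built around SRF, its cofactors and other regulators of smooth muscle genes ran against the contractile profile. The list also holds SRF targets (Ccn1, Egr1 and Fos), and Myocd is counted among the members instead. Of its 16 genes, all were tested, none had an r of at least 0.9 with the profile and 12 had an r below 0, with a median of -0.54. Gata6, a zinc-finger factor, had the highest r, 0.639. Srf itself varied little, with 45.8, 56.5, 47.7 and 58.1 CPM in WT and 51.7, 48.3, 60.4 and 64.2 CPM in Dp1Tyb MEFs (r = 0.274). Mrtfa, a cofactor of SRF released by actin polymerisation, had an r of -0.542, and its relative Mrtfb an r of -0.955 over a span of 1.37-fold. Mrtfb was highest in Dp1Tyb replicate 1 (100.8 CPM) and lowest in Dp1Tyb replicate 2 (73.8 CPM), the libraries at the other ends of the contractile profile. Klf4, which encodes a repressor of smooth muscle genes, ran from 176 CPM in Dp1Tyb replicate 2 to 438 CPM in WT replicate 3 (r = -0.619). Between genotypes edgeR and DESeq2 called 0 of the 16 with either scaling, none had an unadjusted p under 0.05 by edgeR, and the median log2 fold change was -0.06 with relative scaling. The smallest unadjusted p-values belonged to Fhl2, a LIM-only cofactor (log2 fold change 0.25, unadjusted p = 0.0885), Foxo4, a forkhead factor that binds Myocd (-0.20, unadjusted p = 0.171), and Ccn1, a matricellular target of SRF (0.17, unadjusted p = 0.236), each with an adjusted p of 0.999 by edgeR. Without Dp1Tyb replicate 1 the log2 fold change of Ccn1 was 0.0353, and without WT replicate 2 that of Foxo4 was -0.11.

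Transforming growth factor beta (TGF-beta) is the best known inducer of myofibroblasts. Of 24 genes of its pathway and of myofibroblast matrix, all were tested, with a median r with the profile of 0.33 and a range of -0.60 to 0.92. Itga11, the integrin alpha 11 chain that binds collagen, was closest (r = 0.922), with 41.3, 97.1, 39.0 and 19.5 CPM in WT and 17.9, 100.1, 66.4 and 45.7 CPM in Dp1Tyb MEFs. Between genotypes edgeR and DESeq2 called 0 of the 24 with either scaling, and edgeR had 2 at an unadjusted p under 0.05 with relative and 1 with spike-in scaling. Tgfb3, a TGF-beta ligand, had the smallest unadjusted p with relative scaling, with 123, 172, 160.3 and 144 CPM in WT and 168, 223, 241 and 215 CPM in Dp1Tyb MEFs (log2 fold change 0.50, SE 0.14, unadjusted p = 0.00554, adjusted p = 0.903 by edgeR). Ccn2, a matricellular TGF-beta target (0.57, unadjusted p = 0.0293), and Smad3, a signal transducer of the receptor (0.19, unadjusted p = 0.0770), came next, both with an adjusted p of 0.999 by edgeR. Without Dp1Tyb replicate 1 the log2 fold change of Smad3 was 0.12.

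**Figure D4:**
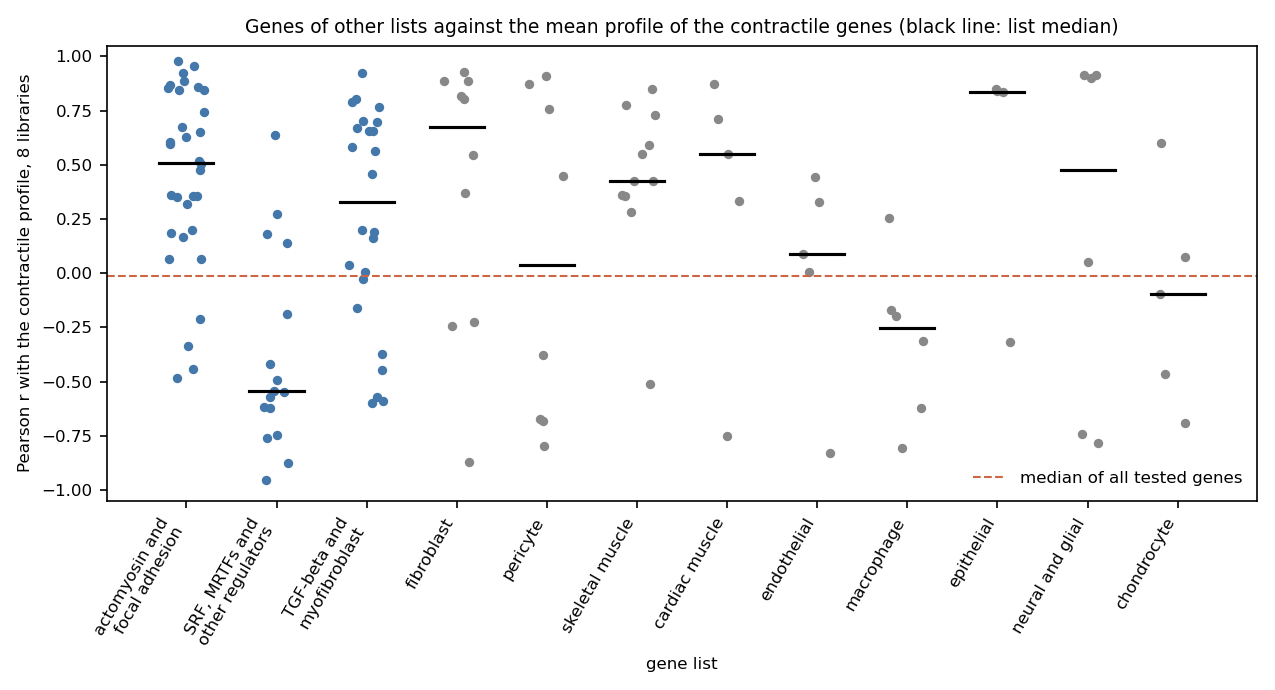
Pearson's r over the 8 libraries between each tested gene of a list and the mean standardised profile of the members, with a black line at the median of the list and a dashed line at the median of all tested genes. The median is 0.51 for actomyosin genes, -0.54 for regulators and 0.33 for TGF-beta genes.

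The genes most like the contractile profile outside the members were Erfe, which encodes the hormone erythroferrone (r = 0.995), Nans, the sialic acid synthase (r = 0.992), Maged1, a MAGE family adaptor (r = 0.988), Sec22b, a membrane fusion protein of the secretory pathway (r = 0.987), and Rps16-ps2, a processed pseudogene (r = 0.987). Erfe had 1.43, 4.11, 0.995 and 1.21 CPM in WT and 0.503, 5.88, 3.15 and 2.24 CPM in Dp1Tyb MEFs, a span of 11.7-fold. Nans spanned 2.13-fold, Maged1 2.24-fold and Sec22b 1.91-fold, less than any member. Rps16-ps2 is a near copy of a ribosomal protein gene, so its reads may not be its own.

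Markers of other cell types were followed because such cultures are mixed. The summed level of 10 fibroblast markers ran from 8629 to 17907 CPM in WT and from 9528 to 16899 CPM in Dp1Tyb MEFs, with a median r with the contractile profile of 0.67. Col1a1 had an r of 0.928, while the 3 markers below 0 were Dcn (-0.226), Pdgfra (-0.245) and Twist1 (-0.870). The sum of 8 pericyte markers was 790 to 972 CPM in WT and 750 to 1047 CPM in Dp1Tyb MEFs, with a median r of 0.04 that covers markers going both ways. Abcc9 (r = 0.911), Mcam (r = 0.873) and Kcnj8 (r = 0.757) followed the contractile profile, whereas Pdgfrb (r = -0.672), Notch3 (r = -0.681) and Anpep (r = -0.797) ran against it. Rgs5, which marks pericytes, was at 1.67 to 10.1 CPM (r = -0.377). For skeletal muscle 13 of 20 markers were in the table, with a sum of 41.0 to 78.4 CPM in WT and 46.2 to 147 CPM in Dp1Tyb MEFs, highest in Dp1Tyb replicate 4, and none of the 11 tested was called by edgeR or DESeq2, with 1 at an unadjusted p under 0.05 by edgeR with relative and 4 with spike-in scaling, all with higher estimates in Dp1Tyb MEFs. The median r with the profile was 0.42, from -0.51 for Chrna1, a subunit of the muscle acetylcholine receptor, to 0.851 for Acta1, skeletal alpha-actin, which spanned 21.2-fold, and Myog, a determinant of muscle differentiation, stayed at 0.0984 to 0.921 CPM. For cardiac muscle 8 of 9 markers were in the table, with a sum of 11.5 to 15.9 CPM in WT and 10.8 to 20.2 CPM in Dp1Tyb MEFs, and a median r of 0.55. Tnnt2, cardiac troponin T (1.59 to 7.27 CPM, r = 0.871), and Actc1, cardiac alpha-actin (r = 0.712), followed the contractile profile, Myh7 less so (r = 0.332), and Hand2, a cardiac transcription factor, ran against it (r = -0.750). Myh6, a cardiac myosin heavy chain, reached 3.31 CPM in WT replicate 1 and 3.12 CPM in Dp1Tyb replicate 2, and Myl7 was at 0.492 CPM or less.

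Endothelial markers, 6 of 7 in the table, summed to 34.4 to 56.9 CPM in WT and 32.0 to 79.0 CPM in Dp1Tyb MEFs, mostly Kdr, and Pecam1 was at 0.379 to 1.23 CPM. The median r with the contractile profile was 0.09 over 5 tested genes, of which 1, Kdr, was below 0 (r = -0.827). The 7 macrophage markers summed to 253 to 350 CPM in WT and 140 to 286 CPM in Dp1Tyb MEFs. Of 6 tested, 5 had an unadjusted p under 0.05 with relative scaling, all of them with a lower estimate in Dp1Tyb MEFs, and edgeR called none and DESeq2 called 1 (Ptprc, the leukocyte antigen CD45). With spike-in scaling 1 of 6 had an unadjusted p under 0.05 by edgeR, and neither tool called any. Their median r with the contractile profile was -0.25. Epithelial markers, 6 of 7 in the table, summed to 7.19 to 20.4 CPM in WT and 5.34 to 15.0 CPM in Dp1Tyb MEFs, with a median r of 0.84 over 4 tested genes. The keratins Krt14 (r = 0.841), Krt8 (r = 0.850) and Krt18 (r = 0.834) followed the contractile profile, and Cldn4 ran against it (r = -0.316). Epcam and Cdh1 did not pass the filter on low counts. Neural and glial markers, all 7 in the table, summed to 51.8 to 58.7 CPM in WT and 39.6 to 64.2 CPM in Dp1Tyb MEFs, with a median r of 0.47. Chondrocyte markers, 5 of 6 in the table, summed to 72.3 to 157 CPM in WT and 65.7 to 125 CPM in Dp1Tyb MEFs, with a median r of -0.10. The part of these cell types in the levels of the contractile genes was not tested.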

How the data were processed

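RNAseq libraries of 4 WT and 4 Dp1Tyb MEF samples were analysed from the raw counts per gene that the authors deposited. Per the study's methods and the submitters' processing notes, the authors added ERCC spike-ins to a fixed number of cells, prepared stranded mRNA libraries, trimmed reads with Trim Galore, mapped read pairs of 100 bases with TopHat2 2.0.12 to GRCm38 plus the spike-in sequences, discarded reads with several alignments and counted with HTSeq; the counts are not normalised. The authors' normalised table and their DESeq2 table of fold changes and p-values were not used. Multi-mapping reads being discarded, genes with near copies lose reads. Gene identifiers were matched to GENCODE M21 (19318 of 19493 matched).

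The members and lists were chosen with earlier results of these data known. Genes passing filterByExpr were tested with edgeR 4.0.16 (quasi-likelihood, R 4.3.3), with Benjamini-Hochberg adjustment over all 16470 genes and a threshold of 0.05, on median-of-ratios factors of the spike-ins or on TMM factors. DESeq2 1.42.0 was an alternative. Log2 CPM used a pseudocount of 0.5, added to the count; RPKM used the union of exons. Pearson's r and Spearman's rho were tested by exact permutation (Python 3.11.15, scipy 1.17.1). The edgeR test was tried with each scaling on simulated data of 16470 genes. It found 98% of 4-fold and 24% of 2-fold changes with spike-in scaling and 100% and 73% with relative scaling. Recovery of such changes at the spread of the members was not tested. Their SD of log2 CPM within genotypes had a median of 1.22, against 0.28 over all tested genes. False calls numbered 12 with spike-in and 15 with relative scaling. Depth, 17698900 to 26471758 counts, limits Myocd most. Named were all members, of each pathway list the called genes or the 3 with the smallest p, the 5 genes most like the members' profile, and the markers needed to describe a list's range; Nexn, Itga8, Csrp1, Vcl, Tpm4, Actg1, Myh9, Actb, Gata6, Egr1, Fos, Srf, Mrtfa, Mrtfb, Klf4 and Itga11 were added after their values were seen. Other filters, factors, pseudocounts, a replicate block and leaving out each library were tried.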

Additional observations from a re-analysis of the deposited data

Results flagged for a closer look

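In groups of 4 libraries, Dixon's test compares the gap between an extreme library and its neighbour with the whole range, and chance passes it in about 1 group in 20. It was run on log2 CPM for the 19 named genes in both genotypes, 38 groups in all, and 2 groups passed. Cnn1 was high in WT replicate 2 (10.5 CPM, gap over range 0.8805), the library that was also high for the other members. Ccn1, an SRF target that is not a member, was high in Dp1Tyb replicate 1 (886.5 CPM, gap over range 0.9407), the library in which most members were lowest. The cause was not tested.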

How the results depend on the processing

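No member was called under any alternative run (DESeq2, no filter on low counts, other factors on both scales, a replicate block, or leaving out each of the 8 libraries), but the direction of 2 members was not stable. With spike-in scaling the log2 fold change of Lmod1 ran from -0.37 to 0.41, and that of Myocd from -0.60 to 0.16, when each library was left out. With relative scaling Lmod1 ran from -0.42 to 0.61 and Myocd from -0.58 to 0.17. The difference of mean log2 values, added after seeing the data, put Lmod1 at 0.125 and 0.0271 with the 2 scalings. With the replicate number as a block Lmod1 was 0.0871 with spike-in and 0.0173 with relative scaling, and 0 members were called on both scales. With spike-in scaling 6 members (2 without the block) had an unadjusted p under 0.05 by edgeR, beside 499 of all 16470 genes (192 without). With relative scaling 2 members (0 without the block) did, beside 1601 genes (703 without). The labels give the replicate numbers no shared litter or day, and the data did not pair all libraries: deviations of WT and Dp1Tyb libraries with the same number correlated at 0.369, 0.524, 0.0288 and 0.326. Numbers 1, 2 and 4 were each other's best match, a hint from the data and not the design, whereas Dp1Tyb replicate 3 correlated best with WT replicate 2 (0.236). The block moved the count of genes called from 2 to 9 with spike-in and from 3 to 7 with relative scaling; DESeq2 called 52 with relative scaling. With spike-in scaling leaving out WT replicate 1 gave 6 calls, and leaving out Dp1Tyb replicate 1, 2 or 4 gave 4, 8 and 6, respectively, and with relative scaling 1 whichever library was left out. Leaving out each library gave 27 to 45 member pairs that passed, against 42 with all libraries, and a median r of 0.86 to 0.95; 36 pairs passed with spike-in scaling. The causes were not tested. The SEs of the members with relative scaling, 0.29 to 0.86 on the log2 scale, limit what could be resolved, and for Myocd the 2 to 27 reads per library do so as well.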
